A study of Homo sapiens with 20 samples.

Results

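The 55 genes described here encode the machinery of DNA replication and entry into S phase: origin licensing factors, the replicative helicase and its activators, the replicative polymerases, the sliding clamp and its loader, enzymes of deoxynucleotide supply, G1/S regulators and replication-coupled chromatin factors. They were chosen by name from a written list, not by a measured value, and all 55 were found among the 60616 gene identifiers of the RNA table and in the footprint table. Expression was measured in K562, a leukaemia cell line with erythroid features, either as parental (wild type) cells or after CRISPR-Cas9 removal of exon 5 of NAT10, the enzyme that writes N4-acetylcytidine (ac4C) into RNA. RNA-seq and Ribo-seq (sequencing of ribosome-protected fragments, called footprints below) had 2 libraries per genotype each. For acRIP-seq, in which RNA fragments were pulled down with an ac4C antibody or with control IgG, 1 merged peak list per antibody and genotype was used. The sources used here do not state whether the knockout cells were 1 clone or whether the replicate libraries came from different cultures. The tests below therefore speak of these libraries, whose spread may be technical.

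Before S phase, the origin recognition complex (ORC1 to ORC6) binds replication origins, and CDC6 and CDT1 then load the ring-shaped MCM2-7 helicase there, a step called licensing. The kinase CDC7 with its activating subunit DBF4, together with cyclin-dependent kinases, turns the loaded ring into the active CMG helicase by adding CDC45 and the GINS complex, while geminin (GMNN) and the degradation of CDT1 prevent a second round. Polymerase alpha-primase makes the primers, polymerases epsilon and delta extend them with the PCNA clamp, and FEN1 and LIG1 finish the lagging strand. Many of these genes are transcribed at the G1/S boundary under E2F transcription factors.

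Promoter sequences were examined because E2F control is what these genes are best known to share. RefSeq promoter entries (GRCh38.p14, 250 bases before to 50 after the transcription start) matched 48 of the 55 genes. The E2F motif written as TTTCCCGC or TTTGGCGC, on either strand, lay in 22 of the 48 (45.8%), against 3.70% of 15842 protein-coding genes in the table. Its shorter 7-letter forms, TTCCCGC or TTGGCGC, which lie inside the longer ones, were in 33 of 48 (68.8%) against 14.8%. The CCAAT motif was in 58.3% of the members and 42.1% of all genes, and TTTGAA, the cell cycle homology region of genes of later phases, was in 2 of 48 (4.17%), against 15.9% of all genes. A match is a description of letters, not a measured binding site. The bases upstream of the start are printed below for the 3 genes whose RNA fell most (RRM1, ORC1 and CDT1) and for RRM2, which encodes the partner subunit of RRM1 and moved the other way. Capitals mark the 7-letter E2F motif.
ORC1 promoter, chr1:52404424-52404673, minus strand: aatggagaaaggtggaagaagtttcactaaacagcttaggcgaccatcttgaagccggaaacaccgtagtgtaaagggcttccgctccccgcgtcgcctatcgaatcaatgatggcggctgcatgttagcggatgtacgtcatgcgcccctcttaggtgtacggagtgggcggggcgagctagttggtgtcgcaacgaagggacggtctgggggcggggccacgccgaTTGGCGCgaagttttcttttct
CDT1 promoter, chr16:88803539-88803788, plus strand: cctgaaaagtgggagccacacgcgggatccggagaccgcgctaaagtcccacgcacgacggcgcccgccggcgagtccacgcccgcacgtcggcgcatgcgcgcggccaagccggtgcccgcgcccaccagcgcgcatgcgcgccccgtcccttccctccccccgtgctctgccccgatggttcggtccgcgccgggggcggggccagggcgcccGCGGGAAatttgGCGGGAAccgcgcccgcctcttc
RRM1 promoter, chr11:4094435-4094684, plus strand: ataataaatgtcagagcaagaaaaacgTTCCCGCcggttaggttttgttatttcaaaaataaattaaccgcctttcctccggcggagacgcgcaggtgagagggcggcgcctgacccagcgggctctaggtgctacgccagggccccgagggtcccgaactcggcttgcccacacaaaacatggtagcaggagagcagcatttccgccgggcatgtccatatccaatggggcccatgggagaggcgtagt
RRM2 promoter, first of its 2 entries, chr2:10122318-10122567, plus strand: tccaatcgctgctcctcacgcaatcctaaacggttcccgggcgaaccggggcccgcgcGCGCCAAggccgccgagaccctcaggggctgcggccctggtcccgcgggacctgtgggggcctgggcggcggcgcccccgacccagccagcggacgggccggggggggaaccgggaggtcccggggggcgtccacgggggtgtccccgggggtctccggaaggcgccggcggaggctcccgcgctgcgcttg
In ORC1 the match began 22 bases before the start, and CDT1 held 2 matches, 35 and 23 bases before it. The RRM1 match lay 223 bases upstream. RRM2 had 1 match 192 bases upstream of the start of this entry and none upstream of the start of its other entry. Genes that fell and genes that rose therefore both included promoters with a match. The upstream 250 bases of GINS1, DBF4 and POLD2 held no whole match, and the 1 match of GINS1 ended past the start.

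Total counts ran from 10388717 to 18778485 per RNA-seq library and from 621287 to 1220308 per Ribo-seq library. The pair of knockout RNA libraries differed by only 2.99% more than counting noise (chi-square 1.03 per degree of freedom), while the wild type pair gave 12.5, so the knockout pair was summed and counted as 1 sample. Each RNA test below therefore sets 1 sample against 2, with the spread taken from wild type. NAT10 itself was lower in both assays, with log2 fold changes of -1.51 (SE 0.085, edgeR adjusted p = 0.000102) in RNA and -1.82 (SE 0.19, edgeR adjusted p = 0.000334) in footprints. Its counts cover the whole gene, not the deleted exon alone. The erythroid markers GATA1, KLF1, TAL1 and TFRC were expressed in every library, and the summed level of 10 erythroid genes was 1472 to 1492 CPM (counts scaled to library size) for knockout and 1238 to 1279 CPM for wild type. The globins HBZ, HBG1 and HBG2 and also TAL1 were among those that rose, and GATA1 fell (-0.42, edgeR adjusted p = 0.020). HBZ alone went from 56.6 and 60.8 CPM in wild type to 243 and 245 CPM in knockout. Sums were 93.2 to 96.8 against 200.3 to 207.8 CPM for 7 granulocyte and monocyte markers, of which 5 fell, and 40.8 to 43.1 against 70.2 to 76.4 CPM for 6 megakaryocyte markers, of which 2 fell and GP9, PF4 and PPBP were at 0. Lymphocyte markers (5, with MS4A1 at 0 and PTPRC called as higher) summed to 8.82 to 9.04 against 8.19 to 8.38 CPM, and fibroblast and epithelial markers (6, with KRT14 at 0 and none called) to 34.4 to 37.3 against 45.1 to 50.5 CPM. The part of these marker shifts in the values below was not tested. In bulk samples, fewer cells of a type and less RNA per cell cannot be told apart. Of 5 proliferation markers (MKI67, TOP2A, CCNB1, CDK1 and BUB1), CDK1 rose and the others were not called, and their summed level was 990.2 to 1002 CPM in knockout and 937 to 984 CPM in wild type.

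Few of the replication genes were called in RNA. All 55 passed the filter on low counts, and RRM2, DBF4 and POLD2 rose and RRM1, ORC1, CDT1 and GINS1 fell at an adjusted p under 0.05 (edgeR quasi-likelihood test), while 48 were not called. Over all 16277 genes tested, 14% were called, 5.17% as higher and 8.79% as lower, so 7 of 55 is near the background share. With the knockout libraries counted as 2 samples, 25 members and 5476 genes (34.1% of those tested) were called. The members' median log2 fold change (knockout minus wild type) was 0.00, as was that of all genes tested, and 28 members lay above 0 and 27 below. The libraries of the genotypes did not overlap for 39 members, 20 with the knockout higher and 19 with it lower, against 34.1% and 34.5% of all genes. Since the knockout RNA pair differed by little more than counting noise, the lack of overlap in RNA in effect sets 1 sample against 2. Footprints could be tested for 54 of the 55, since POLA2 had only 4 to 11 footprint counts per library. ORC1 fell and none rose, against 3.87% and 1.47% of 8887 genes. The members' median footprint fold change was -0.06 on the log2 scale, and 14 members were higher and 19 lower without overlap, where 25.3% and 26.2% of all genes were. At an unadjusted p under 0.05 stood 14 members in RNA and 12 in footprints, against 28.9% and 20.9% of all genes tested, so both counts are near the background share.

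**Figure D1:**
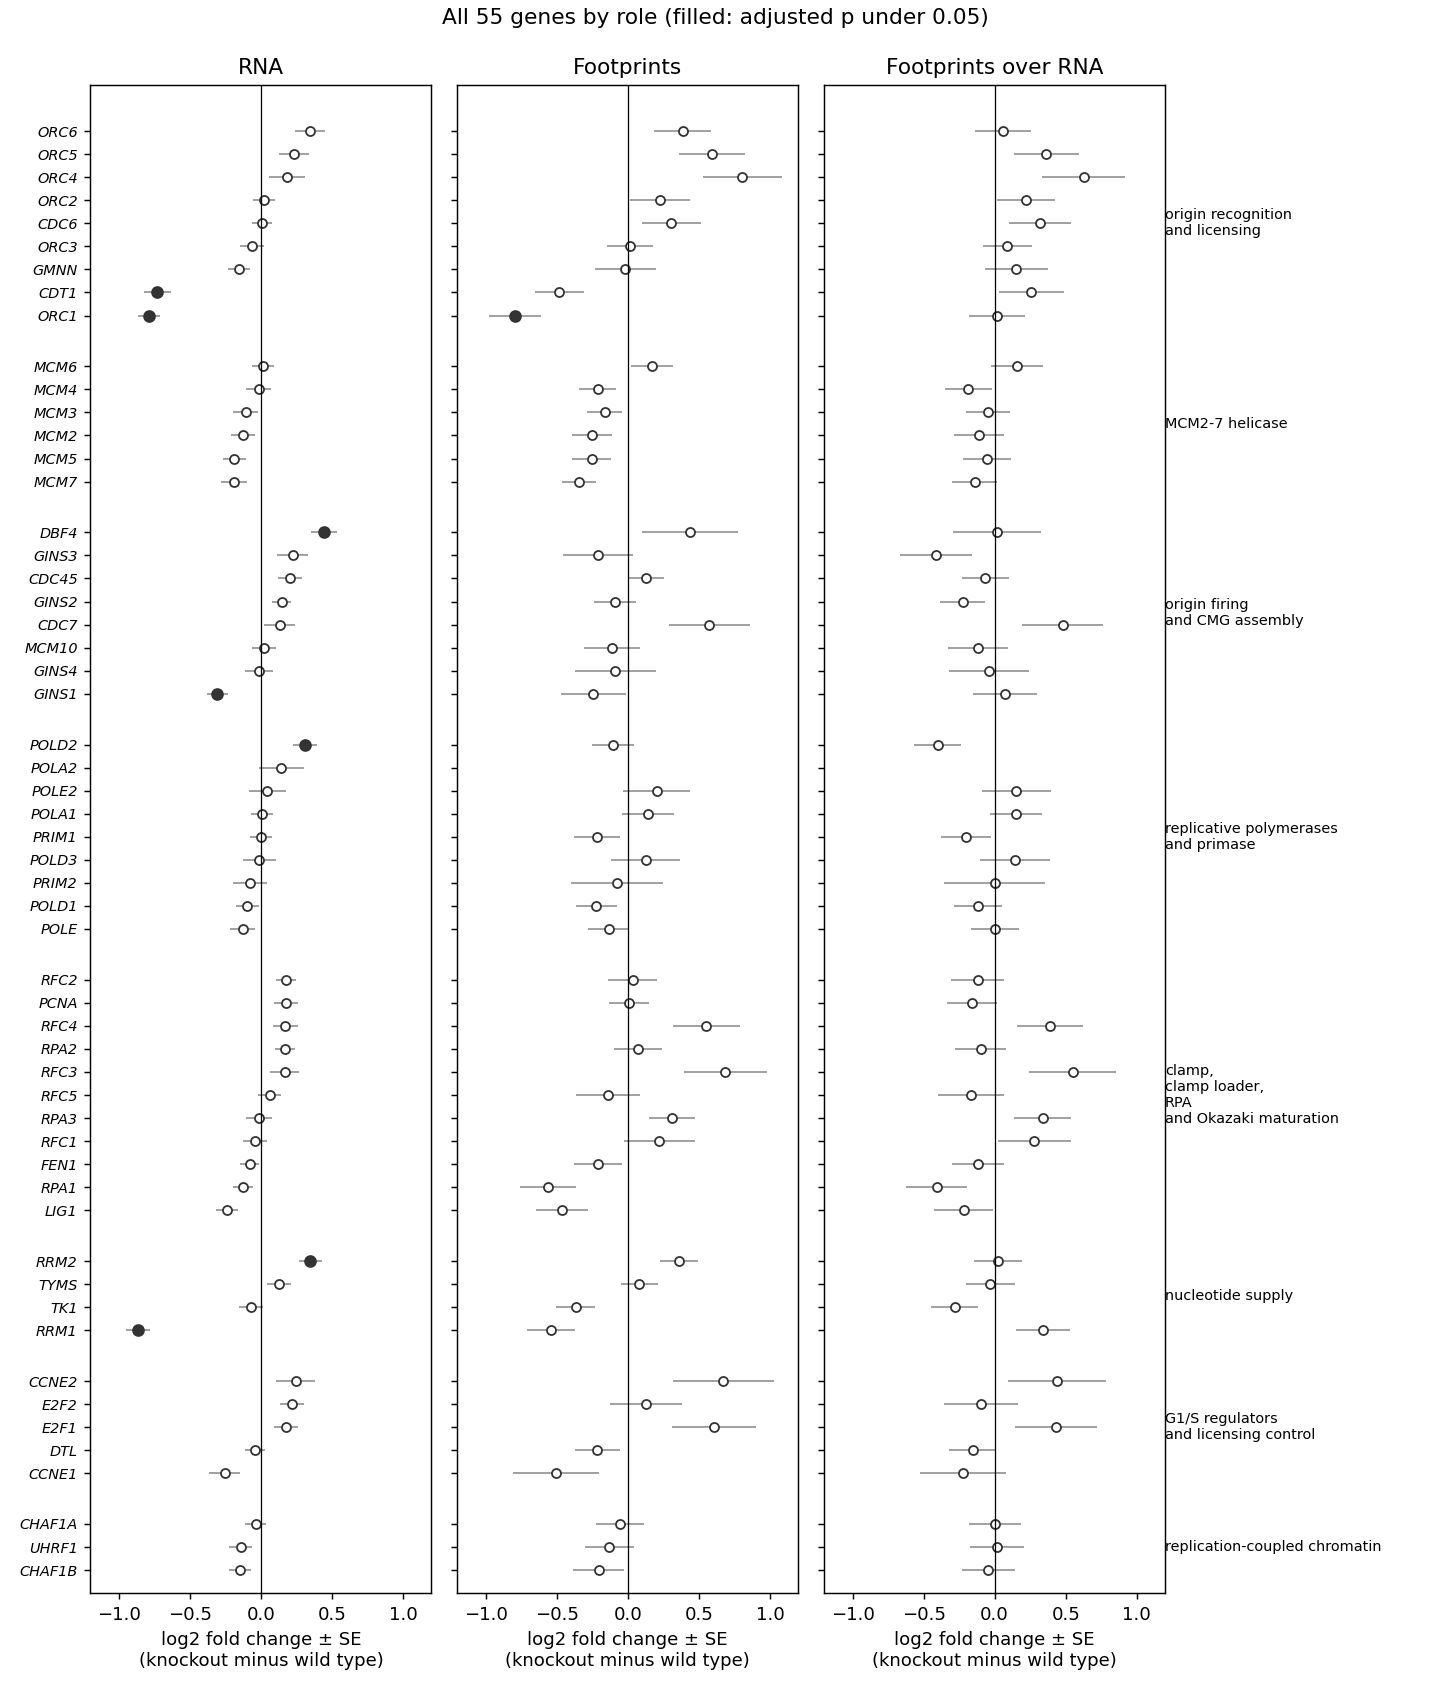
Log2 fold change (knockout minus wild type, x axis, with standard errors) of each of the 55 genes, grouped by role, in RNA, in footprints and in the ratio of footprints to RNA, with filled points for an adjusted p under 0.05. Values crowd around 0 in every role, ORC1, CDT1 and RRM1 stand apart below 0 in RNA, and ORC1 is the 1 filled point among footprints.

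Among the 9 origin recognition and licensing genes, 2 fell in RNA and none rose, where 8.79% and 5.17% of all genes did. ORC1 (ENSG00000085840.13), the ORC subunit whose level varies through the cell cycle, had 73.7 and 73.5 CPM in the knockout libraries and 123 and 131 CPM in wild type. The log2 fold change was -0.79 (SE 0.077, edgeR adjusted p = 0.00086). Footprints of ORC1 were 92.0 and 75.7 CPM in knockout cells and 143 and 154 CPM in parental cells, a change of -0.79 (SE 0.18, edgeR adjusted p = 0.0257). In both assays every wild type library lay above every knockout library, and the size of the fall was the same to 2 decimals. The footprint call was lost when either wild type library was left out, with changes of -0.85 and -0.75 and edgeR adjusted p of 0.0727 and 0.107, and by DESeq2, with -0.81 and adjusted p = 0.157.

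CDT1 (ENSG00000167513.9), the licensing factor that brings MCM2-7 to origins, gave 405 and 401 CPM of RNA in knockout cells and 665 and 671 CPM in parental cells. Its log2 change was a fall, -0.73 (SE 0.093, edgeR adjusted p = 0.0026). Its footprints were 535 and 633 CPM in knockout cells and 677 and 949.9 CPM in parental cells. Here the wild type libraries were again higher without overlap, but they differed from each other by more than the nearest knockout and wild type libraries did, and the change of -0.48 (SE 0.17) did not pass the test (edgeR adjusted p = 0.123). It did without the second knockout Ribo-seq library, at -0.61 (edgeR adjusted p = 0.0149), while without the second wild type library the change was -0.22 (edgeR adjusted p = 0.639). The other 7 licensing genes, ORC2 to ORC6, CDC6 and GMNN, had RNA changes between -0.15 for GMNN and 0.34 for ORC6. Footprints of ORC2, ORC4, ORC5 and ORC6 were higher in both knockout libraries than in both wild type libraries, as were 25.3% of all genes. Their changes were 0.23, 0.81, 0.60 and 0.39, and none passed the test (edgeR adjusted p of 0.585, 0.118, 0.166 and 0.298). In RNA ORC3 was below 0 as well as ORC1, at -0.06, though above 0 without the filter on low counts, where the median of all genes was 0.071.

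None of the 6 MCM2-7 genes passed the test in either assay, where 14% of all genes did in RNA and 5.34% in footprints. By edgeR none was under an unadjusted p of 0.05 in RNA, 1 was in footprints, and DESeq2 called none. In RNA their changes ran from -0.19 for MCM7 and MCM5 to 0.01 for MCM6, with 5 of 6 below 0. It was 4 of 6 without the filter on low counts and by DESeq2, where MCM4 turned above 0. The median of all genes was 0.071 and 0.035 in these settings. In footprints 5 of 6 were below 0 with no overlap between genotypes, MCM6 being the exception, and the median was -0.23. Over all genes tested in footprints, 26.2% were lower without overlap. MCM7, which sits in the ring beside MCM3, showed 534 and 530.4 CPM of RNA in knockout against 598 and 617 CPM in wild type, with a change of -0.19 (SE 0.092, edgeR adjusted p = 0.217). Its footprints were 1298 and 1401 CPM in knockout cells and 1644 and 1778 CPM in parental cells, with a change of -0.34 (SE 0.12, edgeR adjusted p = 0.118). MCM5 had 231 and 228 CPM of RNA in knockout cells and 257 and 266 CPM in parental cells, and its footprints were 524 and 581 against 637 and 679.6 CPM. Both genes were lower in both knockout libraries of both assays by amounts that missed the threshold, as were MCM2 and MCM3. In RNA 34.5% of all genes were lower without overlap.

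Origin firing showed changes in both directions. DBF4 (ENSG00000006634.8), the regulatory subunit that activates CDC7, was at 62.8 and 61.7 CPM of RNA in knockout cells and 44.7 and 46.6 CPM in parental cells. It rose by 0.45 in log2 terms (SE 0.091, edgeR adjusted p = 0.017). DBF4 footprints were 25.5 and 25.8 against 15.9 and 22.4 CPM, also higher in both knockout libraries, with a change of 0.44 (SE 0.34, edgeR adjusted p = 0.484) that was 0.19 without the first wild type Ribo-seq library and 0.68 without the second. CDC7, the kinase itself, differed less in RNA, with 32.8 and 34.7 CPM in knockout cells and 30.5 and 31.1 CPM in parental cells (log2 change 0.13, SE 0.11, edgeR adjusted p = 0.471). Its footprints were 50.2 and 32.2 CPM in knockout cells and 27.7 and 30.3 CPM in parental cells, and the spread of the knockout pair was wider than the gap between genotypes (0.57, SE 0.29, edgeR adjusted p = 0.277). Without the first knockout Ribo-seq library the change was 0.17.

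GINS1 (ENSG00000101003.10), a subunit of the GINS complex of the CMG helicase, gave 73.7 and 70.6 CPM of RNA in knockout cells and 90.4 and 88.0 CPM in parental cells. It fell by 0.31 (SE 0.074, edgeR adjusted p = 0.031), while the RNA changes of GINS2, GINS3 and GINS4 were 0.14, 0.22 and -0.01 and did not pass the test. Footprints of GINS1 were 42.6 and 43.5 against 51.1 and 50.5 CPM, a change of -0.24 (SE 0.23, edgeR adjusted p = 0.588). Of the 4 GINS genes 1 was thus called in RNA, where 14% of all genes were. DESeq2 did not call GINS1 (-0.27, adjusted p = 0.416) or DBF4 (0.48, adjusted p = 0.0951), and GINS1 was also lost without the filter on low counts (-0.23, edgeR adjusted p = 0.098). The remaining members of the group, MCM10 and CDC45, had RNA changes of 0.02 and 0.20.

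Of the 9 polymerase and primase genes only POLD2 was called in RNA, where 14% of all genes were. POLD2 (ENSG00000106628.11), the second subunit of polymerase delta, was at 383 and 378 CPM in knockout and 307 CPM in both wild type libraries, and it rose by 0.31 (SE 0.083, edgeR adjusted p = 0.046). The call was lost when the first knockout library was left out (0.30, edgeR adjusted p = 0.054). Its footprints did not follow in sign, with 268 and 253 CPM in knockout cells and 289 and 271 CPM in parental cells (log2 change -0.10, SE 0.15, edgeR adjusted p = 0.740). POLD1, the catalytic subunit, had 185 and 184 CPM of RNA in knockout cells and 204 and 191 CPM in parental cells, and footprints of 307 and 338 against 361 and 390.3 CPM, lower without overlap in both assays but not called (footprint change -0.22, SE 0.15, edgeR adjusted p = 0.402). The RNA changes of the other 7 genes lay between -0.13 for POLE and 0.14 for POLA2, and those of POLA1 and PRIM1, which open each new strand, were 0.01 and 0.00.

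No gene of the clamp, clamp loader, RPA and Okazaki fragment group was called among 11 in either assay by edgeR or by DESeq2, and 3 in RNA and 4 in footprints were at an unadjusted edgeR p under 0.05, where 28.9% and 20.9% of all genes were. RNA changes ran from -0.24 for LIG1 to 0.18 for RFC2. LIG1, the ligase that seals Okazaki fragments, had 89.6 and 85.5 CPM of RNA in knockout cells and 99.1 and 107 CPM in parental cells (log2 change -0.24, SE 0.078, edgeR adjusted p = 0.084). Its footprints were 119 and 145 against 160.1 and 201 CPM, lower by 0.46 in log2 terms (SE 0.18, edgeR adjusted p = 0.174). RPA1, the large subunit of the single-strand binding protein RPA, differed less in RNA, where knockout had 84.9 and 84.8 CPM and wild type 91.1 and 93.9 CPM. RPA1 footprints were 133 and 88.6 CPM in knockout cells and 179 and 156 CPM in parental cells, a change of -0.56 (SE 0.20, edgeR adjusted p = 0.128), which reached -0.92 and passed the test (edgeR adjusted p = 0.0155) when the first knockout Ribo-seq library was left out. The clamp PCNA had a footprint change of 0.01, and RFC3 and RFC4, subunits of the clamp loader, had 0.69 and 0.55, neither called.

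In nucleotide supply the subunits of ribonucleotide reductase, the enzyme that makes deoxynucleotides, went in opposite directions. RRM1 (ENSG00000167325.15), the large catalytic subunit, was at 99.5 and 93.9 CPM of RNA in knockout cells and 167 and 185 CPM in parental cells, and it fell by 0.87 (SE 0.087, edgeR adjusted p = 0.00098), more than any other of the 55. RRM2 (ENSG00000171848.16), the small subunit whose level rises in S phase, had 282 and 277 CPM in knockout cells and 216 and 224 CPM in parental cells, and it rose by 0.35 (SE 0.080, edgeR adjusted p = 0.027). Footprints of RRM1 were 182 and 156 against 269 and 225 CPM, lower without overlap (log2 change -0.54, SE 0.17, edgeR adjusted p = 0.086). Those of RRM2 were 657 and 664 against 491 and 539.5 CPM, higher without overlap (0.36, SE 0.13, edgeR adjusted p = 0.145). Each subunit thus kept its RNA direction in footprints, below the threshold of that test. TYMS, which makes thymidylate, and TK1, which salvages thymidine, had RNA changes of 0.13 and -0.07 and footprint changes of 0.08 and -0.37, none of them called.

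None of the 5 G1/S regulators was called in RNA or footprints by edgeR or DESeq2, with 2 at an unadjusted edgeR p under 0.05 in RNA and 0 in footprints (all genes 28.9% and 20.9%). E2F1 RNA was 59.4 and 62.3 CPM in knockout cells and 54.5 and 53.4 CPM in parental cells, and E2F2 RNA was 107 and 109 CPM against 98.3 and 87.7 CPM. Both activator E2F genes were higher in both knockout libraries, by 0.17 and 0.22 on the log2 scale (edgeR adjusted p of 0.226 and 0.129). So was CCNE2, and 34.1% of all genes were higher without overlap in RNA. E2F1 footprints were 34.1 and 48.3 against 22.6 and 30.3 CPM (0.61, SE 0.30, edgeR adjusted p = 0.272), while those of E2F2 overlapped (49.4 and 51.5 against 53.6 and 37.0 CPM), and their value of 0.13 turned to -0.10 without the second wild type library. The cyclins CCNE1 and CCNE2, which bind CDK2 at the G1/S boundary, had RNA values of -0.25 and 0.24 in log2 terms. DTL, the receptor of the ubiquitin ligase that degrades CDT1 in S phase, had an RNA change of -0.04.

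The 3 chromatin genes were lower in both knockout libraries than in both wild type libraries in RNA, as were 34.5% of all genes. CHAF1A turned above 0 without the filter on low counts, where the median of all genes was 0.071. None of the 3 was called, by edgeR or DESeq2, with 0 at an unadjusted edgeR p under 0.05. CHAF1B, a subunit of the CAF-1 histone chaperone, gave 66.7 and 65.6 CPM of RNA in knockout cells and 72.8 and 73.7 CPM in parental cells (log2 change -0.15, SE 0.075, edgeR adjusted p = 0.240). Its footprints were 99.6 and 105 against 109 and 127 CPM (-0.21, SE 0.18, edgeR adjusted p = 0.553). CHAF1A, its partner, and UHRF1, which recruits the maintenance DNA methyltransferase to new DNA, had RNA changes of -0.04 and -0.14.

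**Figure D2:**
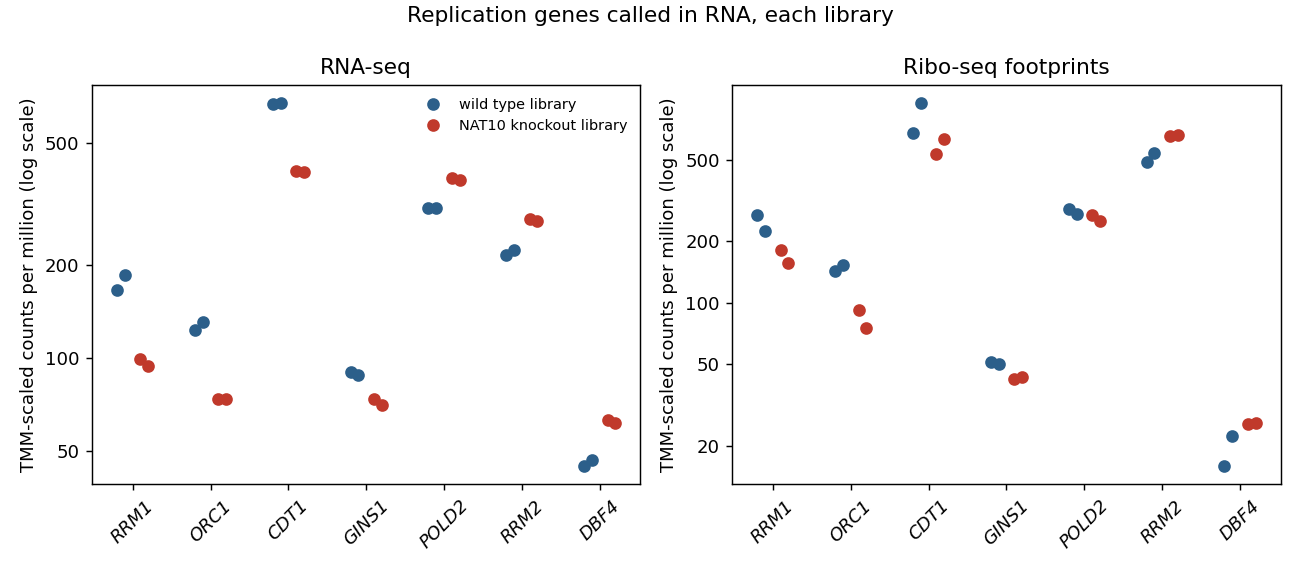
TMM-scaled CPM (log scale, y axis) of the 7 genes called in RNA, 1 point per library, in RNA-seq and in Ribo-seq. RRM1, ORC1, CDT1 and GINS1 lie lower in knockout and RRM2 and DBF4 higher in both assays, while POLD2 lies higher in RNA and slightly lower in footprints.

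A change in the ratio of footprints to RNA, a measure of translational efficiency, was tested in 1 model of both assays. No member and none of the 8821 genes tested passed by edgeR (0.0% called), with 1 member (POLD2) and 828 genes (9.39%) at an unadjusted p under 0.05. No alternative called a member. Without the filter on low counts edgeR called 71 of 13487 genes, and with a replicate block (knockout RNA libraries kept apart) 257 of 8822. DESeq2 called 14 of 2323 genes and gave an adjusted p for only 29 members. For POLD2 the footprint to RNA ratio was 0.700 and 0.669 in knockout cells and 0.943 and 0.884 in parental cells, when library 1 is set against library 1 and 2 against 2 for display. The change was -0.40 (SE 0.17, edgeR adjusted p = 0.503), and it stayed between -0.45 and -0.36 with any single library left out. Among the genes called in RNA the other changes of the ratio were 0.34 for RRM1 (SE 0.19), 0.26 for CDT1 (SE 0.23), 0.07 for GINS1 (SE 0.22) and 0.02 for each of ORC1, DBF4 and RRM2 (SE 0.19, 0.31 and 0.17). For RRM1 and CDT1 the footprints were lower by less than the RNA was, and the difference was within 2 standard errors. With a library left out the ratio change ran from 0.20 to 0.48 for RRM1, lowest without the first knockout Ribo-seq library, and from 0.02 to 0.51 for CDT1, lowest without the first wild type and highest without the second wild type Ribo-seq library. All 9 licensing genes had a ratio change above 0, from 0.02 for ORC1 to 0.63 for ORC4 (SE 0.29, edgeR adjusted p = 0.535). Over all genes 4500 of 8821 were above 0, and no licensing gene was at an unadjusted edgeR p under 0.05. ORC1 was below 0 without the filter on low counts and by DESeq2, where the median of all genes was -0.039 and -0.019. In the MCM2-7 group 5 of 6 were below 0, with a median of -0.08.

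Wild type levels of the members spanned a wide range. Per kilobase of the longest protein-coding transcript in the peak lists, RNA was highest for CDT1 at 251 ± 1.6 CPM per kb (SD, n = 2), followed by PCNA at 220.0 ± 4.7, TYMS at 204 ± 4.7, MCM7 at 197 ± 4.3 and CDC45 at 154 ± 0.030. Of these neighbours TYMS and MCM7 were within 2 SD of each other, and PCNA and TYMS were not. At the low end stood POLD3 at 8.55 ± 0.60, ORC4 at 4.34 ± 0.48 and POLA2 at 3.85 ± 0.27 CPM per kb, the last pair within about 1 SD. Reads were counted over all exons of a gene, so a gene with several isoforms can be misplaced in this order. CDT1, the most abundant member by this measure, was also among the 3 whose RNA fell most. The ratio of footprint CPM to RNA CPM in wild type was highest for PRIM1, the catalytic primase subunit, at 4.07 ± 0.53 (SD, n = 2). It was 3.60 ± 0.87 for RPA3, 2.88 ± 0.084 for CDC45 and 2.81 ± 0.094 for MCM7, and RPA3 lay within 1 SD of each of the other 3. It was lowest for E2F1 at 0.491 ± 0.11, E2F2 at 0.484 ± 0.088, DBF4 at 0.419 ± 0.088 and POLA2 at 0.407 ± 0.087, which lay within each other's spread. Transcripts with long untranslated stretches have lower ratios by construction, because footprints cover the coding part.

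RRM1 differed from the other called members in its place in the genome. It lies on the short arm of chromosome 11, between NAT10 and the tip, in a stretch whose genes were lower as a group, an observation carried over from earlier results of these data. Of 177 tested protein-coding genes there, 165 had an RNA fold change below 0, 106 fell and 5 rose, with a median log2 fold change of -0.57, and the median of 126 tested in footprints was -0.58. RRM1 was the only member in that stretch, and at -0.87 it was the 42nd lowest of the 177. Among the 10 tested genes on each side of RRM1 the median was -0.62 and 12 of 20 fell. The corresponding medians were 0.09 around ORC1, 0.15 around CDT1, -0.10 around GINS1, 0.01 around DBF4, -0.04 around POLD2 and -0.04 around RRM2, and 1 to 3 of the 20 neighbours of each were called in its direction. FEN1, POLA2 and POLD3, also on chromosome 11 but outside the stretch, had RNA changes of -0.08, 0.14 and -0.01. The part of the lowered stretch in the RRM1 value was not tested.

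**Figure D3:**
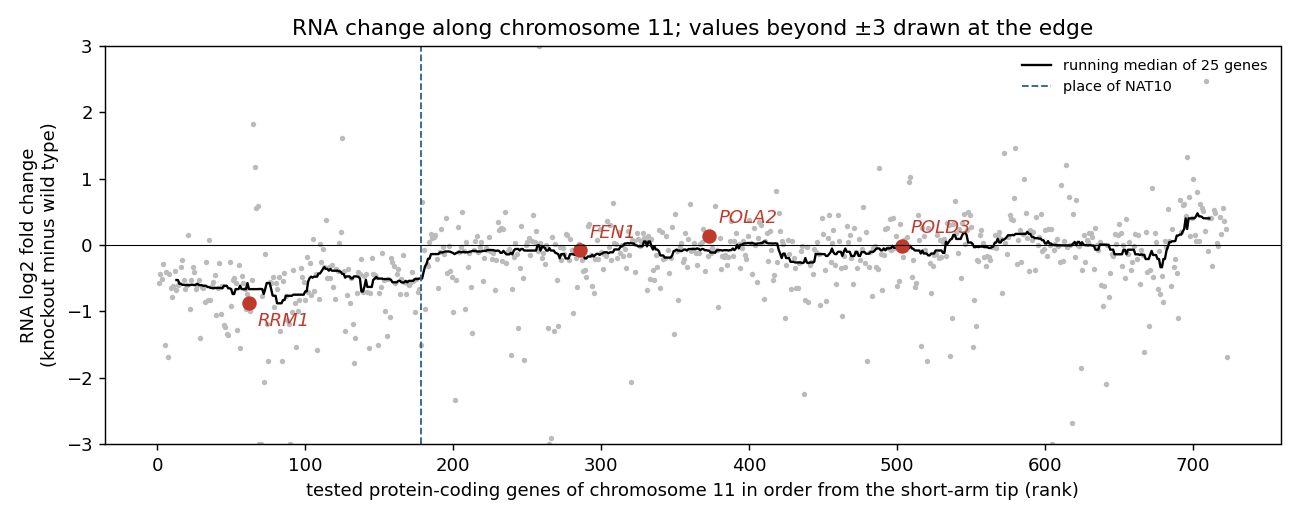
RNA log2 fold change (knockout minus wild type, y axis) of the tested protein-coding genes of chromosome 11 in gene order from the short-arm tip (x axis, rank), with a running median as a black line and the place of NAT10 as a dashed line. The running median lies below 0 up to NAT10 and near 0 just past it, and RRM1 (red, left) lies in the lowered stretch while FEN1, POLA2 and POLD3 lie outside it.

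The other genes of the pathway moved in both directions too. Over all genes tested in RNA, 5.17% rose and 8.79% fell. Of 14 fork protection and checkpoint genes, CHEK1, the checkpoint kinase of stalled forks, rose by 0.40 (edgeR adjusted p = 0.014) and WEE1, which restrains CDK1, fell by 0.70 (edgeR adjusted p = 0.0014). Of 21 further replication factors, POLE4 and RNASEH2C rose by 0.61 and 0.37 and POLD4, the small subunit of polymerase delta, fell by 0.65 on the log2 scale. Of 11 further nucleotide genes, NME1 and DTYMK, kinases of nucleoside diphosphates and of thymidylate, rose by 0.61 and 0.48, and DCK, which salvages deoxycytidine, fell by 0.58. None of 6 histone supply and chromatin genes was called by edgeR in either assay, with 1 at an unadjusted p under 0.05 in RNA and 0 in footprints. WEE1 lies in the lowered stretch of chromosome 11, as do CDKN1C and E2F8.

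Among 25 cyclins, CDKs, inhibitors and E2F or RB family genes, 4 rose and 3 fell in RNA, where 14% of all genes were called. CDKN1A, which encodes the CDK inhibitor p21, was at 71.9 and 66.1 CPM in knockout cells and 34.6 and 31.7 CPM in parental cells, higher without overlap, with a log2 change of 1.06 (SE 0.10, edgeR adjusted p = 0.0008). CDKN1C, which encodes p57, had 21.9 and 19.8 CPM against 43.2 and 35.7 CPM and fell by 0.92 (SE 0.14, edgeR adjusted p = 0.0053). TFDP1, the dimerization partner of E2F, rose by 0.38, CDKN2C by 0.31 and CDK4 by 0.31, while the D cyclins CCND3 and CCND1 fell by 0.39 and 0.33. In footprints CCND3 (-0.54, edgeR adjusted p = 0.033) and CDKN1C (-1.15, edgeR adjusted p = 0.017) fell, and no other gene of these 5 lists was called. Over all genes tested in footprints, 1.47% rose and 3.87% fell.

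Peak lists placed nearly all members in both the antibody and the IgG pulldown. The lists give, per transcript, regions that the authors called for each pulldown against input. Within each list the members' highest fold values are whole multiples of 1 small step, so these values shared 1 denominator. Such values can rise with RNA abundance, and the part of abundance in them was not tested. CCNE2 had no peak in any list and is not analysed here. The representative transcript of a gene was the longest protein-coding one present in any of the lists. Genes with no peak on such a transcript in any list are therefore outside every peak share given for members and for all genes. On 1 representative transcript for each of the other 54 genes, 53 had an antibody peak in wild type, against 76.7% of 9521 tested genes with such a transcript, and the same 53 had an IgG peak. In the median gene 99.8% of the bases in antibody peaks were also in IgG peaks, and 180 of 227 antibody summits (79.3%) lay within 100 bases of an IgG summit, where all genes gave 80.7%. POLE, the catalytic subunit of polymerase epsilon, was the only member with an antibody region free of IgG in wild type, against 4.95% of all genes. It had 2, at bases 1845 to 2184 and 2530 to 2810 of a transcript of 7823 bases, with the authors' fold enrichments of 1.73 and 1.76. Their −log10 q values were 3.48 and 3.74, where the lowest in the list was 2.29, and both are under the stricter cut of 10 used below. The strongest wild type antibody peaks by the authors' fold enrichment were on RPA3 (63.9), PCNA (53.8), CDT1 (51.4) and GINS2 (51.1), and the same 4 members led the IgG list. At the other end of the antibody list stood LIG1, RFC1 and CDC7 at 1.9, 1.9 and 2.0.

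In the knockout lists 53 of the 54 members had an antibody peak, against 85.9% of all genes, and 50 had an IgG peak, while POLE2 had neither. An antibody region without IgG was present on 10 of 54 members (18.5%), against 26.6% of all genes: ORC5, GINS3, CDC7, POLA1, POLA2, POLD2, POLD3, RFC4, LIG1 and CCNE1. The one on POLD2 spanned bases 23 to 197 of 2158 and that on CCNE1 bases 1 to 336 of 1954, both with the authors' fold of 4.90, and the others had folds of 2.19 to 2.82. The knockout lists were longer, with 162944 and 147469 lines for antibody and IgG against 92194 and 93329 in wild type, so counts of regions cannot be compared between genotypes. Each list merged its replicates, so no replicate error can be given. ORC1, CDT1, RRM1 and RRM2, whose promoters are printed above, had antibody peaks over 97.0%, 94.8%, 95.6% and 67.2% of their transcript in wild type and IgG peaks over 97.9%, 94.6%, 96.9% and 65.3%. In wild type the antibody and IgG shares of each thus lay within 2 percentage points. In the knockout lists the antibody and IgG shares were 96.6% and 91.3% for ORC1, 98.9% and 96.3% for CDT1, 87.8% and 81.0% for RRM1, and 61.8% and 79.1% for RRM2.

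**Figure D4:**
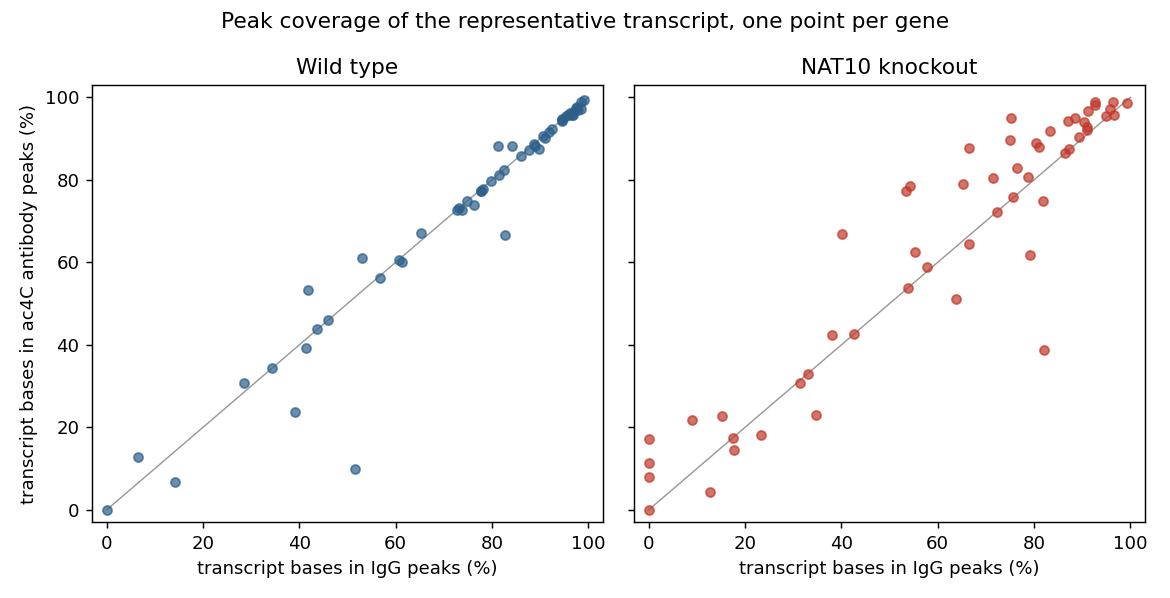
Share of the representative transcript covered by ac4C antibody peaks (y axis, percent) against the share covered by IgG peaks (x axis, percent), 1 point for each of 54 genes, in wild type and in knockout, with the line of equal shares. Wild type points lie along the line, with median shares of 82.4% and 82.5% among genes with peaks, and knockout points scatter more widely, with 78.5% and 75.4%.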

How the data were processed

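RNA-seq, Ribo-seq and acRIP-seq of K562 cells were used, grouped by the genotype and replicate number in the sample titles. Per the file headers, the deposited tables hold raw counts of reads per gene from alignments with duplicates removed. The submitters' processing notes name STAR, featureCounts, Bowtie2, MACS2 and the build GRCh38.p13, without roles. Removing duplicates of short footprints lowers abundant genes most, and the sources used here do not state a strand setting, so overlapping or antisense genes could not be told apart. The deposited peak lists, named as pulldown against input, hold a fold enrichment, a −log10 q value and a score per transcript region. They are in the narrowPeak format and merge replicates per their names.

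Whole tables were fitted in edgeR 4.0.16 under R 4.3.3 (scaling by TMM, filterByExpr, quasi-likelihood F test, Benjamini-Hochberg adjustment over all genes tested, threshold 0.05). The knockout RNA libraries were summed to 1 sample, leaving 1 residual degree of freedom in RNA, 2 in footprints and 3 for the interaction, and the lone sample was taken to vary as the wild type pair does. The biological coefficient of variation was 9.12%, 12.0% and 7.13%. CPM values are scaled by TMM over the genes tested. Symbols came from the reference name table for 60419 of 60616 identifiers. Per-library values are given for members called in any assay and for the member with the lowest p per role and assay, the rest by range and count. Members and lists were chosen with earlier results of these data known, so no test over a list was made. Alternatives were RLE scaling, no filter, DESeq2 1.42.0, each replicate left out, knockout RNA libraries kept apart, a replicate block, and stricter peak rules.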

Additional observations from a re-analysis of the deposited data

How the results depend on the processing

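Under RLE scaling the same 7 members were called in RNA and the same 1 in footprints. RNA counts of called members were 10 without the filter on low counts (9.51% of all genes called), 5 by DESeq2 (6.62%), and 6 to 8 with a knockout library left out (POLD2 lost without replicate 1, ORC6 gained without replicate 2). Leaving out a wild type RNA library left no residual degree of freedom, so those fits give fold changes only. With the knockout RNA libraries kept apart the count was 25 (14 higher, 11 lower), with 34.1% of all genes called. Footprint counts were 4 without the filter (6.51% of all genes), 0 by DESeq2 (2.98%, with an adjusted p for 49 members), and 0 to 3 with a library left out (0 without either wild type library, 2 with RPA1 gained without knockout replicate 1, 3 with CDT1 and RFC3 gained without knockout replicate 2). Replicates share only a number here, and same-numbered deviations correlated at -0.02 in RNA and 0.22 in footprints. With a replicate block 18 members were called in RNA (knockout libraries kept apart) and 11 in footprints, where 31.1% and 17.9% of all genes were. The members' median log2 change without the filter was 0.075 in RNA, where that of all genes moved to 0.071. In efficiency it was -0.046, where that of all genes moved to -0.039. By DESeq2 the median of all genes was 0.035 in RNA and -0.019 in efficiency. With a library left out the members' median ranged from -0.030 to 0.033 in RNA, -0.092 to 0.00046 in footprints and -0.045 to 0.051 in efficiency. E2F2 footprints ranged from -0.096 to 0.44 with a library left out, below 0 without wild type replicate 2. Efficiency values near 0 changed sign. ORC1 gave -0.031 without the filter, -0.019 by DESeq2 and -0.16 to 0.10 with a library left out, below 0 without knockout footprint replicate 1, wild type footprint replicate 1 or wild type RNA replicate 2. DBF4 gave -0.031 without the filter, -0.019 by DESeq2 and -0.25 to 0.24 with a library left out, below 0 without knockout footprint replicate 2, wild type footprint replicate 1 or wild type RNA replicate 2. RRM2 gave -0.027 without the filter, -0.0050 by DESeq2 and -0.052 to 0.085 with a library left out, below 0 without wild type footprint replicate 1 or wild type RNA replicate 2. Wild type members with an antibody region free of IgG numbered 3 at −log10 q of at least 10 (3.53% of all genes), 2 when IgG had to cover 50% of a region (6.69%) and 9 over all transcripts (17.7%). The last count was 34 in knockout (51.9%). The cause of these shifts was not tested. Of the members not named by the rule, 17 of 39 changed sign under some alternative in RNA, 14 of 38 in footprints and 16 of 38 in efficiency. Of footprint counts there were at most 1220308 per library, and POLA2 was too low to pass the filter.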
